A study of Urocitellus parryii with 24 samples.

Results

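EGR1, SMAD5 and LPIN2 are 3 of the 1329 genes that the study listed as changed in the liver of arctic ground squirrels (AGS) across hibernation, and each was followed here through 1 of the 9600 spotted cDNA probes of a nylon membrane array. The genes entered that list through their mean levels in torpor (T), arousal (A) and post-reproduction (P), and the same means tied each symbol to its probe. They were therefore selected on the differences between T, A and P, which are described below without a test. The rule did not use the stages inside T and A, and these were tested. The 2 sets of membranes were tested too, but they fell unevenly on the states. The choice by state means is therefore not independent of a difference between the sets. The genes were also picked out with earlier results of these data known.

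EGR1 is a zinc finger transcription factor of the immediate early class, whose transcript rises quickly and briefly after growth factor, hormone or stress signals. SMAD5 is a receptor-regulated SMAD protein that carries signals of bone morphogenetic proteins (BMPs) from the cell membrane to the nucleus, and in liver this branch is best known for its control of hepcidin and iron. LPIN2 is the lipin that dominates in liver. Lipins are phosphatidic acid phosphatases that make the diacylglycerol from which triacylglycerol and phospholipids are built, and they can also act in the nucleus as coregulators of transcription.

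Livers of 24 AGS were compared, with 1 membrane per animal. T comprised early torpor (4 animals, taken near the start of a bout) and late torpor (5 animals, taken near its end). A comprised early arousal (4 animals, shortly after spontaneous rewarming) and late arousal (4 animals, several hours further into the euthermic episode). P comprised 7 animals, labelled summer active, which had finished reproduction and begun to molt. All animals were wild-caught, and the labels give no genotype or drug. The 17 hibernating animals carried telemetry implants, were kept on a short photoperiod and had no food throughout hibernation, and these conditions cannot be told apart from hibernation in any comparison with P. Torpid animals were killed without anesthesia, whereas A and P animals received isoflurane, which likewise cannot be told apart from T.

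All levels are log2 ratios, that is the background-subtracted signal of a spot divided by the median of its membrane, so a value of 0 is the median spot and a step of 1 is a doubling. Levels of different probes were not compared with each other, because probe length and labelling differ. The EGR1 spot read 34.0 to 552 intensity units against a local background of 9.25 to 33.9, and it exceeded 2 times the background on 22 of 24 membranes, with 2 P membranes below. The SMAD5 spot read 37.3 to 137 units and passed the same limit on 23 membranes. The membrane below it, at 1.73 times the background, was that of the fourth early torpor animal, which also gave the lowest SMAD5 level, -1.77. LPIN2 read 53.7 to 965 units and passed it on all 24. None of these spots was marked as empty. One neighbour of the EGR1 spot was on average 51.3 times as bright as EGR1, and its log2 ratio ran opposite to that of EGR1 over the 24 membranes (Pearson r = -0.42, Spearman rho = -0.57), as a description of spots that share a membrane and a scaling. The brightest neighbour of SMAD5 was 24.0 times as bright as SMAD5 and ran with it (r = 0.31, rho = 0.45), and that of LPIN2 was 4.25 times as bright (r = 0.30, rho = 0.29). Whether signal from a neighbour reached any of these spots was not tested.

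The membranes belong to 2 sets, named A1 and A2 in the scanner files, and the sets did not fall evenly on the states. All 9 T membranes, 7 of 8 A membranes and 2 of 7 P membranes were of set A1. The remaining 5 P membranes and the second late arousal animal were of set A2. The differences between T or A and P are therefore also given with the set as a block. All 7 hepatocyte markers, ALB and APOB among them, exceeded 2 times the background on every membrane, and their summed linear ratio was 489 to 1297 in T, 413 to 712 in A and 627 to 954 in P. The 5 leukocyte markers summed to 11.6 to 36.4 in T, 7.30 to 14.0 in A and 7.30 to 41.8 in P. The summed ratio of the 4 stellate cell and fibroblast markers was 2.13 to 3.82 in T, 2.44 to 3.57 in A and 2.74 to 4.65 in P. The 2 endothelial markers gave 5.61 to 11.0, 3.80 to 7.17 and 4.52 to 8.79 in the same order, and the erythroid marker HBA2 gave 0.97 to 7.81, 0.40 to 2.42 and 1.55 to 2.42. The 7 muscle markers, most of which liver cells should lack, still gave 3.73 to 5.22 in all, and 4 of them exceeded 2 times the background on every P membrane. A signal over background on this platform is therefore not by itself expression. In bulk liver, fewer cells of a type and less RNA per cell cannot be told apart.

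EGR1 stood highest in early arousal. The 4 early arousal animals read 2.51, 1.47, 1.57 and -0.13, and the 4 late arousal animals read -0.35, 0.23, 0.49 and 0.37. Thus 3 of 4 early animals lay above every late one, while the remaining early animal lay inside the late range. In torpor, the 4 early animals read -0.49, -1.06, -0.13 and 1.99 and the 5 late animals read -0.06, -0.36, -0.52, -0.33 and -0.74. The fourth early torpor animal was more than 2 log2 units above the next one of T, and every other torpid animal stayed below 0. That animal also had a summed leukocyte marker ratio of 36.4, against a T median of 15.1, which ranked 2 among all 24. The highest sum, 41.8, belonged to a P animal whose EGR1 level was -0.69. The sum next below 36.4 was 28.4, in a P animal that read -0.72 for EGR1. The part of leukocytes in any EGR1 level was not tested. P animals were lowest by mean, with a lowest value of -1.69, a median of -0.77 and a highest of -0.44. The torpid animals at -0.49, -1.06, -0.52 and -0.74 lay inside that range.

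The order of the group means for EGR1 was early arousal (1.35 ± 1.09, SD, n = 4), late arousal (0.19 ± 0.37, n = 4), early torpor (0.08 ± 1.33, n = 4), late torpor (-0.40 ± 0.25, n = 5) and P (-0.91 ± 0.42, n = 7). The means of late arousal and early torpor differed by far less than the SD of either, and the ranges of early and late torpor overlapped. All 8 A animals lay above all 7 P animals. Across the platform, 0.0957% of 9407 probes with values on all membranes separated A from P in this direction, a figure given as background only, since the state means chose the gene.

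**Figure D1:**
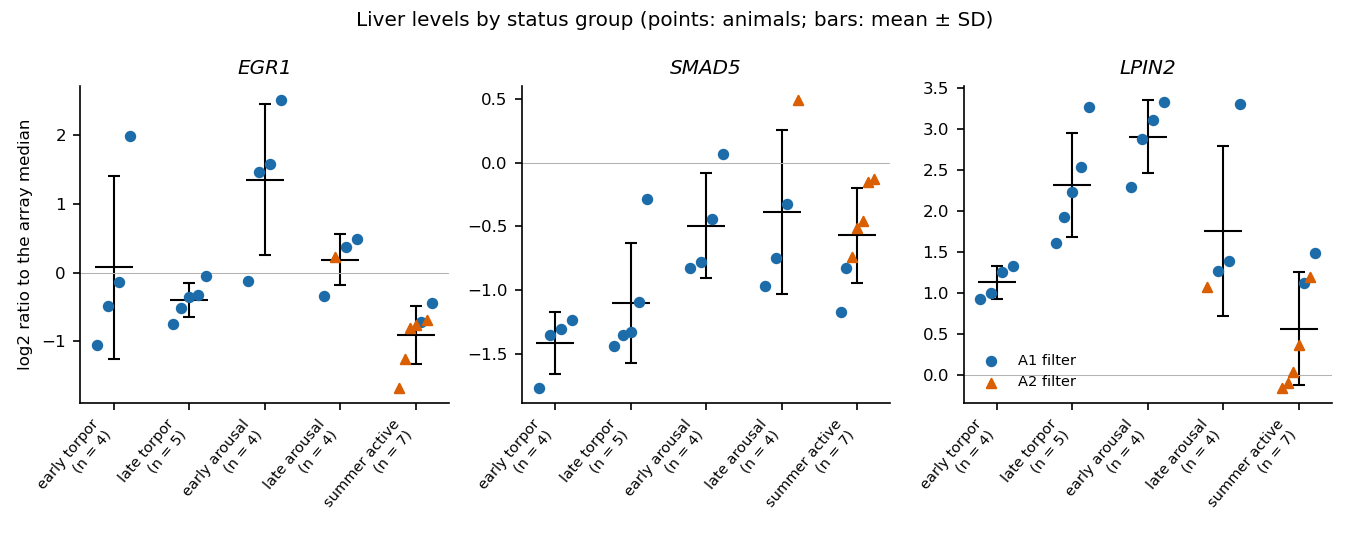
Log2 ratio to the membrane median (vertical axis, scaled separately for each gene) of EGR1, SMAD5 and LPIN2 in the 24 livers by status group; each point is 1 animal, circles are A1 and triangles A2 membranes, and bars give the mean and SD. Of the 4 early arousal animals, 3 exceed 1.4 for EGR1, 8 of 9 torpid animals lie below -1 for SMAD5, and the 4 early torpor animals lie below the 5 late torpor animals for LPIN2.

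By mean, SMAD5 read lowest in torpor at both stages. Its spot was dim, with a mean background-subtracted signal of 47.5 units. What part of that signal was SMAD5 expression was not tested. The early torpor animals read -1.23, -1.36, -1.30 and -1.77, and the late torpor animals read -0.29, -1.33, -1.10, -1.44 and -1.35. The first late torpor animal stood apart at -0.29, and the other 8 torpid animals all lay below the lowest A animal. Early arousal animals read -0.83, -0.78, -0.45 and 0.07, and late arousal animals read -0.33, 0.49, -0.75 and -0.97. The highest SMAD5 value of the series, 0.49, came from the only A membrane of set A2. P animals had a lowest value of -1.18, a median of -0.52 and a highest of -0.13, and the 2 lowest of them were the 2 on set A1.

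The order of the means for SMAD5 was late arousal (-0.39 ± 0.64, n = 4), early arousal (-0.50 ± 0.41, n = 4), P (-0.57 ± 0.38, n = 7), late torpor (-1.10 ± 0.47, n = 5) and early torpor (-1.42 ± 0.24, n = 4). The first 3 of these means lay within 1 SD of each other. The step from P down to late torpor was larger than either SD, but the ranges of these groups overlapped.

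LPIN2 read lower in each early torpor animal than in any late torpor animal. The early torpor animals read 1.26, 0.92, 1.01 and 1.33, whereas the late torpor animals read 1.92, 2.54, 1.61, 3.27 and 2.23. The early arousal animals read 3.11, 3.33, 2.30 and 2.88, and the late arousal animals read 1.39, 1.07, 3.30 and 1.27. Of the late arousal animals, 3 lay below every early one, and the third lay at the top of the early range. P animals had a lowest value of -0.16, a median of 0.37 and a highest of 1.49, and 2 of the 3 P values above 1 came from the 2 membranes of set A1.

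By mean, LPIN2 ran from early arousal (2.90 ± 0.44, n = 4) through late torpor (2.31 ± 0.63, n = 5), late arousal (1.76 ± 1.04, n = 4) and early torpor (1.13 ± 0.20, n = 4) to P (0.57 ± 0.69, n = 7). Neighbours in this order overlapped in range in all 4 cases. The early torpor animals, with the lowest winter mean, all lay inside the range of P. So did the late arousal animals at 1.39, 1.07 and 1.27. The top of the P range, 1.49, came from a membrane of set A1.

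The difference between early and late stages within a state does not enter the state means of the rule. In arousal, EGR1 was higher early by 1.17 ± 0.48 (log2, SE; 2.25-fold; 95% interval 0.18 to 2.16). The unadjusted limma p was 0.0224 and the p adjusted over 9597 probes was 0.561. Swapping the 8 animals in an exact two-sided permutation test gave p = 0.114, where 0.0286 is the smallest this design allows. LPIN2 was higher early by 1.14 ± 0.43 (2.21-fold; 95% interval 0.26 to 2.03), with an unadjusted limma p of 0.0136, an adjusted p of 0.518 and an exact permutation p of 0.114. SMAD5 was lower early by 0.11 ± 0.30 (95% interval -0.73 to 0.52; limma adjusted p = 0.956; exact permutation p = 0.8). Neither difference of EGR1 or LPIN2 passed the adjusted threshold, and their intervals ran from 0.18 or 0.26 up to more than 2 on the log2 scale. Over all probes limma found 0 differences between early and late arousal at an adjusted p of 0.05 (0%), and 748 probes had an unadjusted p under 0.05.

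In torpor, LPIN2 was lower early than late by 1.18 ± 0.41 (2.27-fold; 95% interval of early minus late -2.02 to -0.34). The unadjusted limma p was 0.00774 and the adjusted p was 0.840, whereas the exact permutation test of the 9 animals gave p = 0.0159, the smallest its 126 splits allow. Groups that did not overlap in this direction were found for 1.79% of 9407 probes. EGR1 was higher in early torpor by 0.48 ± 0.46 (95% interval -0.46 to 1.42; limma adjusted p = 0.998; exact permutation p = 0.667), and without the fourth early torpor animal it was lower by 0.16. SMAD5 was lower in early torpor by 0.31 ± 0.29 (95% interval -0.91 to 0.28; limma adjusted p = 0.998; exact permutation p = 0.317). Here too limma found 0 probes at an adjusted p of 0.05 (0%), with 458 at an unadjusted p under 0.05. The 9 exact tests of the 3 genes, including 3 on membrane sets below, were not adjusted for their number.

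The LPIN2 values ran in opposite directions in the 2 states, being higher late in torpor and, in 3 of 4 late animals, lower late in arousal. The difference between its stage difference in arousal and that in torpor was 2.33 ± 0.59 (95% interval 1.10 to 3.55). It ranked 5 by absolute t among 9594 probes, with an unadjusted limma p of 0.00061 and an adjusted p of 0.698, and so did not pass over the whole array. With the membrane set as a block it was 2.08 ± 0.53 (limma adjusted p = 0.568), and without the third late arousal animal it was 2.84 (limma adjusted p = 0.104). For EGR1 this difference was 0.69 ± 0.66 (limma adjusted p = 0.915) and for SMAD5 it was 0.21 ± 0.42 (limma adjusted p = 0.968). Among all probes, limma found 0 at an adjusted p of 0.05 (0%) and 581 at an unadjusted p under 0.05.

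**Figure D2:**
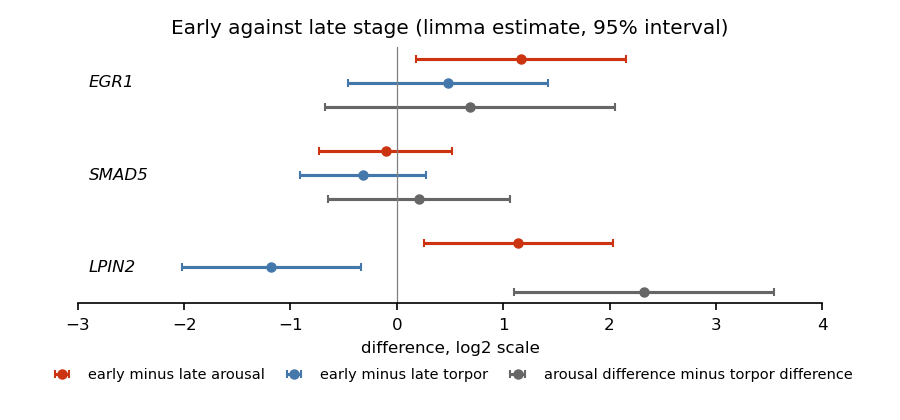
Early minus late difference in arousal and in torpor, and the arousal difference minus the torpor difference, for each gene on the log2 scale (horizontal axis); points are limma estimates over 24 membranes and bars are 95% intervals. The torpor interval of LPIN2 runs from -2.02 to -0.34 and its arousal interval from 0.26 to 2.03, while all 3 intervals of SMAD5 include 0.

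The steps around the cycle join a stage of T to a stage of A and are descriptions. From late torpor to early arousal, EGR1 was higher by 1.76 ± 0.46 (3.38-fold), SMAD5 by 0.61 ± 0.29 (1.52-fold) and LPIN2 by 0.59 ± 0.41. Between late arousal and early torpor, SMAD5 had the widest step, being lower in early torpor by 1.03 ± 0.30 (2.04-fold). LPIN2 was lower there by 0.63 ± 0.43, and by 0.11 without the third late arousal animal. EGR1 was lower there by 0.11 ± 0.48, and leaving out the first or the second early torpor animal turned the EGR1 value to 0.08 or 0.27.

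EGR1, with the states pooled and no block, was higher in A than in P by 1.68 ± 0.38 (3.20-fold) and in T than in P by 0.72 ± 0.37 (1.65-fold), and it was lower in T than in A by 0.96 ± 0.36 (1.94-fold). SMAD5 was lower in T than in P by 0.67 ± 0.21 (1.59-fold) and lower in T than in A by 0.80 ± 0.21 (1.74-fold), and A lay 0.13 ± 0.22 above P. LPIN2 was higher than in P in both winter states, by 1.76 ± 0.39 in A (3.39-fold) and by 1.22 ± 0.38 in T (2.33-fold), and T lay 0.54 ± 0.36 below A. T and A share the same 7 P animals in these comparisons. Without the fourth early torpor animal, the T minus P value of EGR1 was 0.45. With normexp background correction, whose offset compresses dim spots, EGR1 differed from P by 0.98 in A and 0.34 in T, and SMAD5 in T by -0.29 from P and -0.32 from A.

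Of the 3 genes, only SMAD5 passed the adjusted threshold between the membrane sets, and LPIN2, with a larger difference, lay just short of it. The fit of the sets held the 3 states but not the stages, as did the state differences with the set as a block. Every T and every early arousal membrane was of set A1. T thus adds nothing to the set difference, and in A stage and set are partly mixed. Within states, SMAD5 read higher on A2 than on A1 by 0.78 ± 0.24 (1.71-fold; 95% interval 0.29 to 1.26; limma adjusted p = 0.0210). LPIN2 read lower on A2 by 1.19 ± 0.44 (2.28-fold; 95% interval -2.09 to -0.29; limma adjusted p = 0.0546), and EGR1 read lower by 0.52 ± 0.48 (95% interval -1.51 to 0.47; limma adjusted p = 0.482). So 1 of 3 genes passed, against 20.1% of 9596 probes over the platform and 31.2% of the listed genes, which were chosen in the same way. The SMAD5 call rested on few membranes, since the difference was 0.60 (limma adjusted p = 0.219) without the second late arousal animal and 0.75 (limma adjusted p = 0.0725) without the first P animal.

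Inside P alone, 2 animals on A1 could be set against 5 on A2. SMAD5 read -1.18 and -0.83 on A1 and -0.74 to -0.13 on A2, with no overlap, as for 14.3% of 9407 probes in this direction. The exact permutation p was 0.0952, the smallest that 2 against 5 animals allow, so this comparison cannot reach 0.05. LPIN2 read 1.13 and 1.49 on A1 and -0.16 to 1.20 on A2, and 4 of the 5 A2 animals lay below both A1 animals (exact permutation p = 0.190). EGR1 read -0.72 and -0.44 on A1 and -1.69 to -0.69 on A2 (exact permutation p = 0.190). The identifiers of the animals also followed the states, since those starting with 04 made up 7 of 9 T, 7 of 8 A and 1 of 7 P animals, and what the prefix stands for is not given in the labels. With the prefix as a block, EGR1 exceeded P by 1.19 in T and 2.22 in A, and A minus P of SMAD5 turned to -0.16.

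With the set as a block, the T minus P difference became smaller for all 3 genes. The T minus P difference of LPIN2 went from 1.22 to 0.37 ± 0.46, and that of SMAD5 from -0.67 to -0.11 ± 0.25. That of EGR1 went from 0.72 to 0.35 ± 0.50. The A minus P difference went from 1.76 to 1.06 ± 0.43 for LPIN2 and from 1.68 to 1.37 ± 0.47 for EGR1, while that of SMAD5 went up from 0.13 to 0.59 ± 0.23. The T minus A differences, which rest almost wholly on set A1, stayed at -1.02 ± 0.36 for EGR1, -0.70 ± 0.18 for SMAD5 and -0.69 ± 0.33 for LPIN2. With the block, the estimates of all 3 genes were thus above both P and T in A, and those of T minus P were smaller than their SE. Within set A1 alone, where only 2 P animals remain, LPIN2 in T exceeded P by 0.48 and SMAD5 in T lay 0.24 below P.

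**Figure D3:**
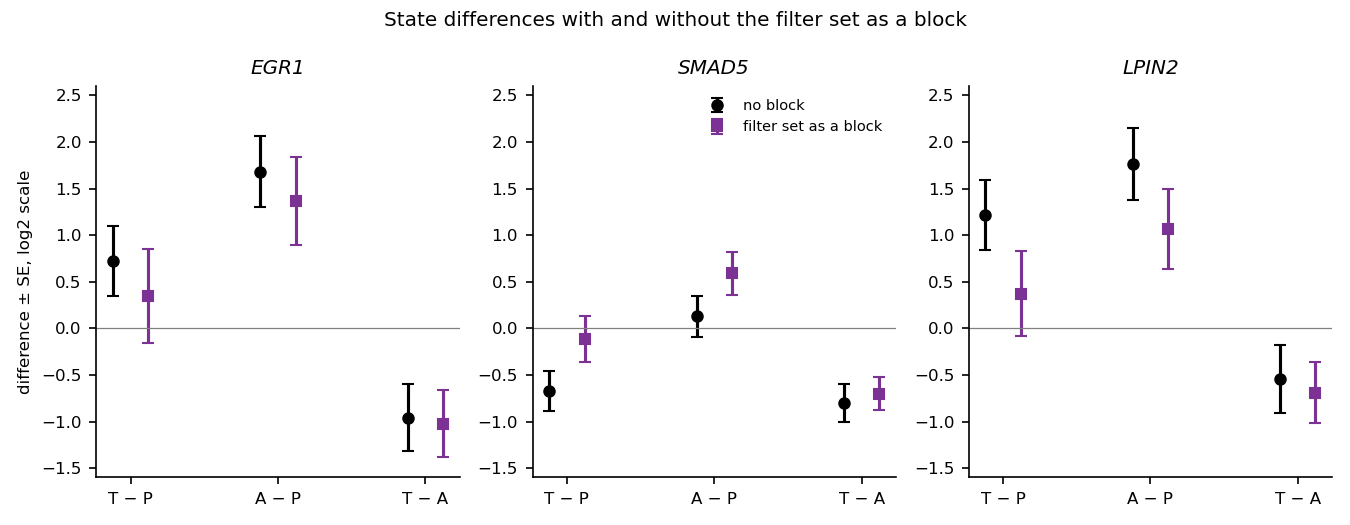
State differences of EGR1, SMAD5 and LPIN2 on the log2 scale (vertical axis, limma estimate with SE) without a block (circles) and with the membrane set as a block (squares). T minus P of LPIN2 falls from 1.22 to 0.37 and that of SMAD5 moves from -0.67 to -0.11, whereas T minus A stays below 0 for all 3 genes in both fits.

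The genes around each member were followed as lists drawn from the same 1329 genes. Those were selected on these animals by the same state differences. Counts and passes for T against P, A against P and T against A are therefore not independent evidence. Of all probes, 5.5% were higher and 4.35% lower in T than in P, against 25.6% and 21.7% of the 1329 listed genes. For A against P these shares were 2.61% and 5.85% of all probes, and 12.1% and 26.4% of the listed genes. Between T and A, 0.469% of all probes and 2.33% of the listed genes passed, and no gene of the 3 lists did. With the set as a block, 1.29% of all probes passed, and the share of the listed genes was not counted. ID2 was then higher in T by 1.19 (limma adjusted p = 0.0325) and IFRD1 lower by 1.07 (limma adjusted p = 0.0324). Both genes had been selected on the same states. Unless the block is named, the list values below are without it. Genes of the lists counted as rising or falling passed the adjusted limma threshold of 0.05. The block also widened the SE of the members against P, for EGR1 in T from 0.37 to 0.50. Only 2 of 7 P membranes are of set A1. A call lost with the block therefore need not mean a smaller difference.

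Of 12 early response and stress-hormone transcripts, 4 rose and 4 fell in T against P, with a median difference of -0.08 against -0.02 over all probes. ID2, an inhibitor of basic helix-loop-helix factors, was higher by 1.68, KLF10 by 0.90, DDIT3 by 0.67 and KLF9 by 0.63. TSC22D3, a glucocorticoid-induced transcript, was lower by 1.60, and the kinase SGK1, ODC1 of polyamine synthesis and heme oxygenase HMOX1 were lower by 0.99, 0.87 and 0.83. In A against P, 3 rose and 3 fell. IFRD1 rose by 1.03, DDIT3 by 0.70 and NFKBIA, the inhibitor of NF-kappaB, by 0.65. The antiproliferative TOB1 fell by 1.48, SGK1 by 1.47 and HMOX1 by 0.82. With the set as a block, ID2 was the only list gene that still passed in T against P, at 1.91, and the others became 0.71 (KLF10), 0.33 (DDIT3), 0.29 (KLF9), -1.63 (TSC22D3), -0.79 (SGK1), -0.17 (ODC1) and -0.03 (HMOX1). In A against P, TOB1 (-1.71) and SGK1 (-1.32) still passed with the block, and IFRD1, DDIT3, NFKBIA and HMOX1, at 0.83, 0.42, 0.43 and -0.16, did not. Between early and late arousal, where EGR1 differed by 1.17, the list had a median of -0.08 with 5 of 12 genes higher early and none past the adjusted threshold. IFRD1 came nearest to EGR1 there, at 0.83 with an unadjusted limma p of 0.0210.

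Of 14 genes of BMP, activin and TGF-beta signalling, 3 rose and 3 fell in T against P, with a median of -0.25. Next to ID2 and KLF10, both known targets of this family, the proteoglycan DCN was higher, by 0.70. The regulators PIAS1 and HIPK2 were lower by 0.67 and 0.61 and the transcription factor GATA4 by 0.70. In A against P, the phosphatase CTDSP1 was higher by 0.62 and PCSK6, HIPK2 and TOB1 were lower by 0.78, 0.60 and 1.48, with a list median of -0.24. With the set as a block, DCN in T became 0.16, PIAS1 -0.21, HIPK2 -0.46 and GATA4 -0.04, and none of these passed. In A, CTDSP1 (0.38) and HIPK2 (-0.48) no longer passed, and PCSK6 and TOB1 did. ACVR2A, a type II receptor, differed from P by 0.51 in T and by 0.75 in A, neither past the threshold. Within arousal and within torpor none of the 14 passed, and the list medians of early minus late were -0.06 and 0.12.

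Of 14 genes of glycerolipid synthesis and breakdown, 3 rose and 4 fell in T against P, with a median of -0.29. GPAM, which catalyses the first step of glycerolipid synthesis, was lower by 1.95 in T and by 2.27 in A. The acyltransferase AGPAT3 was lower by 0.64 and 0.82, and PEMT, which makes phosphatidylcholine, by 1.31 and 1.55. CHKB was lower in T by 0.73 and CIDEB, of lipid droplets, was lower in A by 0.76. AGPAT6 was higher by 1.11 in T and by 1.05 in A, and cardiolipin synthase CRLS1 and the triacylglycerol lipase PNPLA2 were higher in T by 1.32 and 0.77. With the set as a block, GPAM still passed in T and in A, at -1.48 and -1.88, and PNPLA2 in T, at 1.08. The other calls of this list were lost with the block. PEMT became -0.03 in T and -0.49 in A, AGPAT6 0.27 and 0.36, CHKB -0.31 in T and CRLS1 0.77 in T. The estimates of AGPAT3, at -0.67 and -0.84, and of CIDEB in A, at -0.72, hardly changed. DULLARD, a phosphatase known to act on lipins, differed from P by -0.36 in T and 0.18 in A without passing. The list medians of early minus late were -0.23 in arousal and 0.08 in torpor, where LPIN2 differed by 1.14 and -1.18, and no gene of the list passed.

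Between the membrane sets, 2 of 12, 2 of 14 and 3 of 14 genes of the lists passed, no larger a share than the 31.2% of all listed genes. Of all probes, 9.8% were higher and 10.3% lower on A2. Of the 12 early response transcripts, ODC1 and HMOX1 passed as higher on A2, by 0.99 and 1.12, and none passed as lower. Only 4 of the 12 estimates were above 0, with a list median of -0.30. GATA4 was higher by 0.92 and DCN lower by 0.76, with a list median of -0.21. PEMT was higher by 1.79, AGPAT6 lower by 1.17 and FIT1 lower by 0.82, with a list median of 0.01. With the set as a block, 0.969% of all probes passed for T minus P and 2.71% for A minus P. The share of the listed genes with the block was not counted. Without it, 47.3% of the listed genes against 9.86% of all probes passed for T minus P, and 38.5% against 8.47% for A minus P. The list calls kept with the block therefore cannot be read against the share of all probes.

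**Figure D4:**
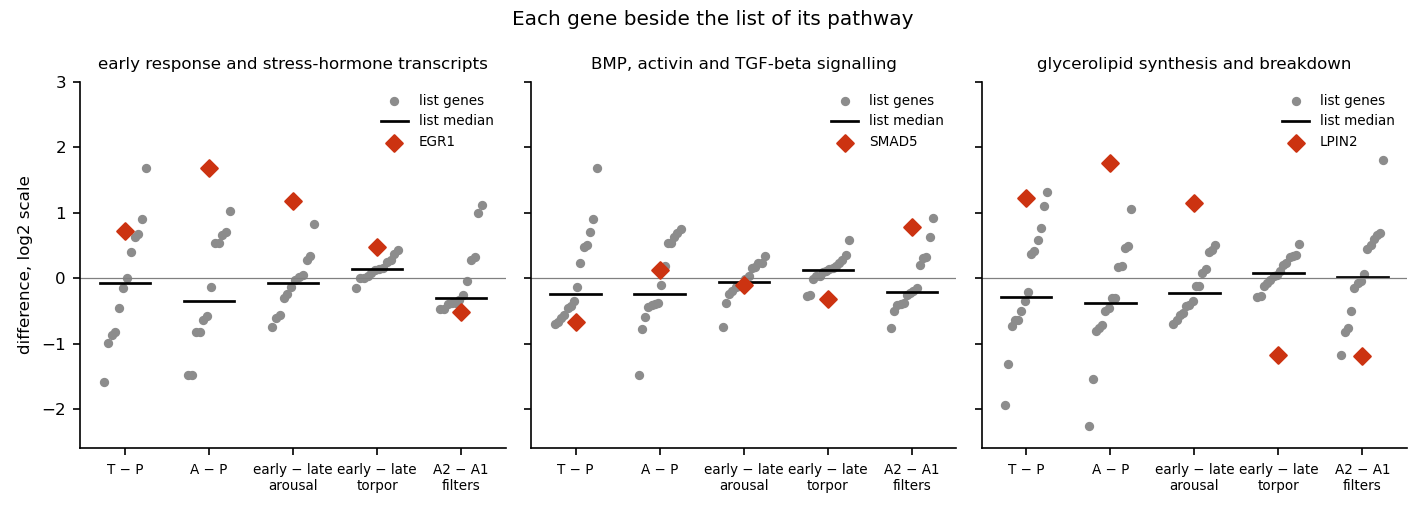
Differences on the log2 scale (vertical axis) of the 12, 14 and 14 list genes (grey points), their median (black line) and the member gene (red diamond) for T and A against P, early against late arousal and torpor, and A2 against A1 membranes. EGR1 at 1.17 lies above all 12 list genes in early against late arousal, and LPIN2 at 1.14 and -1.18 lies outside all 14 list genes at both stage comparisons.

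Among 1311 other listed genes with values on every membrane, those whose pattern over the 24 membranes was most like EGR1 were STK17A (r = 0.81), OGN (0.74), VCAN (0.70), FARSA (0.70) and NFX1 (0.69). With state means removed, HM13, GLUL and MCCC1 came first, at 0.70, 0.70 and 0.69. For SMAD5 the first 5 were DYNC1I1, PFDN6, FAM8A1, RAPGEF1 and APOBEC2, at 0.76 to 0.73, and with state means removed SUPT5H (0.83), FSD2 (0.74) and APOBEC2 (0.70). For LPIN2 they were the kinase PDPK1 (0.79), PRCC (0.76), EAF2 (0.74), CROP (0.71) and glucose-6-phosphatase G6PC (0.70), and with state means removed TMEM205 (0.73), the mitochondrial acyl-CoA dehydrogenase ACADVL (0.68) and AZGP1 (0.65). All these points share membranes, scaling, states and sets, and on the 18 membranes of set A1 the r of LPIN2 with PDPK1 was 0.56 and that of EGR1 with STK17A was 0.75. Between the members themselves, r over 24 membranes was 0.53 for EGR1 with LPIN2, -0.09 for EGR1 with SMAD5 and -0.19 for SMAD5 with LPIN2. On the 18 membranes of set A1 these were 0.41, 0.10 and 0.29, and over 24 membranes with state means removed they were 0.18, -0.38 and -0.30, and both correlations with SMAD5 turned sign on set A1.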

How the data were processed

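Liver RNA was amplified, labelled with 33P and hybridized to nylon membranes. The authors deposited, per the file headers, the signal and background intensity of each spot as read by ImaGene 6.1.0, and a table in which each value is the ratio of background-subtracted median signal to the array median. Recomputed ratios matched that table to within 4.98e-07, apart from 2297 spots that the authors set to 0.002. The log2 of the recomputed ratio was analysed, and 668 of 230400 spots at or below 0 were missing.

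Each of the 1329 symbols listed by the study was paired with the probe whose 3 state means equalled the listed ones within 1e-04 (1329 of 1329 paired, and the next probe was at least 0.0053 away). The study had kept, for each symbol, the probe with the smallest p over the states. The members, lists and tests were chosen with earlier results of these data known. Named genes were the members, genes of 3 pathway lists, and the 5 most correlated genes of each member (3 with state means removed). Limma 3.58.1 (R 4.3.3) was fitted over 5 groups, or 3 states, on all probes with Benjamini-Hochberg adjustment and a threshold of 0.05. Fits were tested on simulated data. Exact permutation tests (SciPy 1.17.1) were two-sided, at double the smaller tail. Replicates are separate animals, numbered in the order of the samples. The median signal of a membrane was 54.1 to 132 units over a background of 13.3 to 19.9, and 8157 to 9197 probes exceeded 2 times the background; 24 membranes limit the precision. Other settings tried were normexp (offset 50) in place of plain subtraction, quantile scaling, values at or below 0 set to 0.002, and the ratio table itself. Mean pixels, dim probes left out, the identifier prefix as a block, and the membrane set as a block or set A1 alone were tried too. Each membrane was also left out in turn. Sequences of the clones were not used here.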

Additional observations from a re-analysis of the deposited data

Results flagged for a closer look

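Animals that stood apart from their group by Dixon's test were sought in the 5 status groups, T and A for each gene, 21 groups in all, of which chance would pick out about 1 in 20. EGR1 in T was picked out for the fourth early torpor animal, at 1.99, whose gap to the next animal was 0.673 of the range of the 9. SMAD5 in T was picked out for the first late torpor animal, at -0.29, with a gap of 0.547 of the range. LPIN2 in late arousal was picked out for the third animal, at 3.30, with a gap of 0.855 of the range of the 4. These are 3 different animals, and none of the 3 genes differed between the stages of arousal and torpor past the adjusted limma threshold.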

How the results depend on the processing

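No paired analysis was possible because every membrane came from a different animal. Over 31 results, 260 of 271 values under other settings and 730 of 744 values with an array left out counted as unchanged. Tested values of the genes had to keep their direction and their side of the threshold. Untested ones had to keep their direction and move by less than the spread. Many values could not change. Flooring, the ratio table and leaving out dim probes return the same estimates for the 3 genes, as does leaving out an array outside a comparison. Stage tests far from the threshold could hardly cross it. The counts are therefore not a measure of robustness. With the membrane set as a block, T minus P became -0.11 for SMAD5 and 0.37 for LPIN2, A minus P became 0.59 for SMAD5, and early minus late arousal of SMAD5 turned to 0.094 (0.19 on set A1 alone). With the identifier prefix as a block, A minus P of SMAD5 turned to -0.16, and A2 minus A1 of LPIN2 was -1.25 (limma adjusted p = 0.0455), and it was -1.19 (limma adjusted p = 0.0455) with dim probes left out. With normexp, T minus A of SMAD5 was -0.32 and early torpor minus late arousal -0.47, where the added offset compresses dim spots by construction. On set A1 alone, 1 probe passed between early and late torpor. The cause of the other shifts was not tested.

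With each array left out in turn, T minus P ranged from 0.45 to 0.83 for EGR1, -0.79 to -0.59 for SMAD5 and 1.04 to 1.37 for LPIN2. A minus P ranged from 1.43 to 1.84, -0.0031 to 0.21 and 1.62 to 1.94 for the same genes, and T minus A from -1.23 to -0.71, -0.92 to -0.67 and -0.73 to -0.40. Early minus late arousal ranged from 0.78 to 1.66, -0.30 to 0.19 and 0.91 to 1.66, and early minus late torpor from -0.16 to 0.86, -0.40 to -0.11 and -1.36 to -0.94. The difference between these stage differences ranged from 0.30 to 1.33, 0.00 to 0.50 and 2.09 to 2.84. Early arousal minus late torpor ranged from 1.37 to 2.25, 0.42 to 0.81 and 0.41 to 0.83, and early torpor minus late arousal from -0.75 to 0.27, -1.22 to -0.73 and -0.86 to -0.11. A2 minus A1 ranged from -0.61 to -0.42, 0.60 to 0.92 and -1.34 to -1.04, and the LPIN2 value passed (limma adjusted p = 0.0324 to 0.0369) without late arousal animal 1 or 4, late torpor animal 4 or P animal 7. Between 940 and 1955 probes passed for the membrane sets, with 940 without late arousal animal 2 and 1271 without P animal 1 against 1927 with all, and 0 passed in every stage comparison. The limma adjusted p of LPIN2 over all these settings was 0.326 to 0.811 in arousal and at least 0.528 in torpor, and that of EGR1 in arousal was 0.344 to 0.830.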
